A study of Mus musculus with 10 samples.

Results

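The genes described here are 35 mouse genes of the NRF2 pathway, of glutathione metabolism and of the defence against ferroptosis, measured in skin. They were chosen by symbol as a list of NRF2 targets, peroxidases, superoxide dismutases and ferroptosis genes, and each symbol matched 1 gene identifier among the 55487 genes of the deposited tables. All 35 passed the filter on low counts and were tested, among 17321 genes in all. RNA was sequenced from the skin of 5 mice whose genotype is written Hamp1-KI ker (KI in what follows) and of 5 wild type mice (WT). The knock-in concerns Hamp, which encodes hepcidin, a peptide hormone that lowers iron export from cells. The labels neither spell out "ker" nor give a promoter, a Cre line, a sex or an age, and no treatment is named, so the cells in which the knock-in acts are not stated for these libraries. Each library is 1 labelled animal sample, titled with a prefix whose meaning is not given: EAS37 for KI 1, KI 2, WT 1, WT 2 and WT 3, and EAS42 for KI 3, KI 4, KI 5, WT 4 and WT 5.

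NRF2, the product of Nfe2l2, is a transcription factor that KEAP1 keeps scarce by targeting it for degradation, and oxidants or electrophiles that modify KEAP1 let it accumulate. It then binds antioxidant response elements together with small MAF proteins and raises genes that make glutathione, reduce quinones and aldehydes, and regenerate thioredoxin and NADPH. Ferroptosis is a form of cell death driven by iron and by peroxidation of membrane lipids. Glutathione, made from imported cystine, lets GPX4 reduce lipid peroxides, and AIFM2 acts beside it through reduced ubiquinone.

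The libraries held between 18.96 and 26.43 M expected counts. Hamp had 90.03, 169, 104, 95.3 and 85.6 CPM (counts per M of library size) in KI libraries, against 1.90, 3.33, 2.72, 1.86 and 2.48 CPM in WT libraries. This gave a log2 fold change of 5.48 ± 0.26 (SE; adjusted p = 3.78e-06 by edgeR), so each library matched its genotype label. The skin keratin Krt5 averaged 5767 ± 1099 CPM in KI and 5934 ± 943 CPM in WT (SD, n = 5 each). Krt14 was higher in KI, at 8490 ± 3048 against 3181 ± 1151 CPM (log2 fold change 1.42 ± 0.31, edgeR adjusted p = 0.00742). Krt10 (0.03 ± 0.36) and Lor (0.08 ± 0.30) did not pass, and Krt10 had 1.0 in EAS37 and -0.84 in EAS42. Of 7 basal keratinocyte markers 1 was higher and 3 were lower in KI, and of 8 suprabasal markers 4 were higher. Markers of other cells differed between the genotypes too. Among all tested genes 15.6% were higher in KI and 15.3% lower (edgeR adjusted p under 0.05). Of 8 fibroblast markers 3 were lower in KI. Of 16 skeletal muscle markers 3 were lower, near the share of all genes. Of 13 adipocyte markers 8 were lower in KI, as were 6 of 8 endothelial, 6 of 6 Schwann cell and 4 of 6 smooth muscle markers. Of 11 markers of activated keratinocytes 9 were higher. Immune markers were higher in KI too: 6 of 8 for T cells, 4 of 9 for macrophages and dendritic cells, and all 5 tested of 10 for neutrophils, of which S100a8 and S100a9 are also on the activated keratinocyte list and the defining marker Ly6g was at 0 in all libraries. Levels of a list are given as the average log2 CPM over its markers. The T cell level ran over 2.48 to 2.78 in KI and 1.16 to 1.67 in WT, and the neutrophil level over -0.15 to 0.85 in KI and -1.81 to -1.53 in WT. The part of these cells in the results was not tested. In bulk tissue fewer cells of a type and less RNA per cell cannot be told apart. The adipocyte level ran over 5.21 to 6.10 in KI and 6.08 to 6.85 in WT, the skeletal muscle level over 7.14 to 10.44 in KI and 10.41 to 11.04 in WT, and the activated keratinocyte level over 5.18 to 6.96 in KI and 1.11 to 3.25 in WT. The hair shaft level instead followed the title prefix, with 3.21 to 7.84 in the 5 EAS37 libraries and -0.29 to 1.22 in the 5 EAS42 libraries.

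KI skin held more mRNA of thioredoxin (Txn1), Prdx1, Prdx5, Gpx1, Gsto1, Akr1b8, Nqo1 and G6pdx, and marginally more of Nfe2l2. It held less of Prdx3, Gstm1, catalase, Sod1, Gpx3 and Aifm2. The reductases Txnrd1 and Gsr did not pass. The genes that import cystine and make glutathione did not pass the test over all 10 libraries. With the title prefix as a term, Slc7a11 and Gclm of that group passed as higher in KI. Of the 35 genes 9 were higher in KI and 6 were lower, at an adjusted p under 0.05 by edgeR's quasi-likelihood test with Benjamini-Hochberg adjustment over all genes tested. The other 20 did not pass. The share called, 42.9%, stands beside 30.9% of all tested genes. For higher calls the share was 25.7% of the 35 genes beside 15.6% of all genes, and for lower calls it was 17.1% beside 15.3%, so the lower calls were about as frequent as in the background. In 8 genes every KI library exceeded every WT library, and in 3 every KI library lay below every WT library, where 20.3% of all genes showed no overlap in either direction. The median log2 fold change was 0.10 over the 35 genes and -0.01 over all genes.

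**Figure D1:**
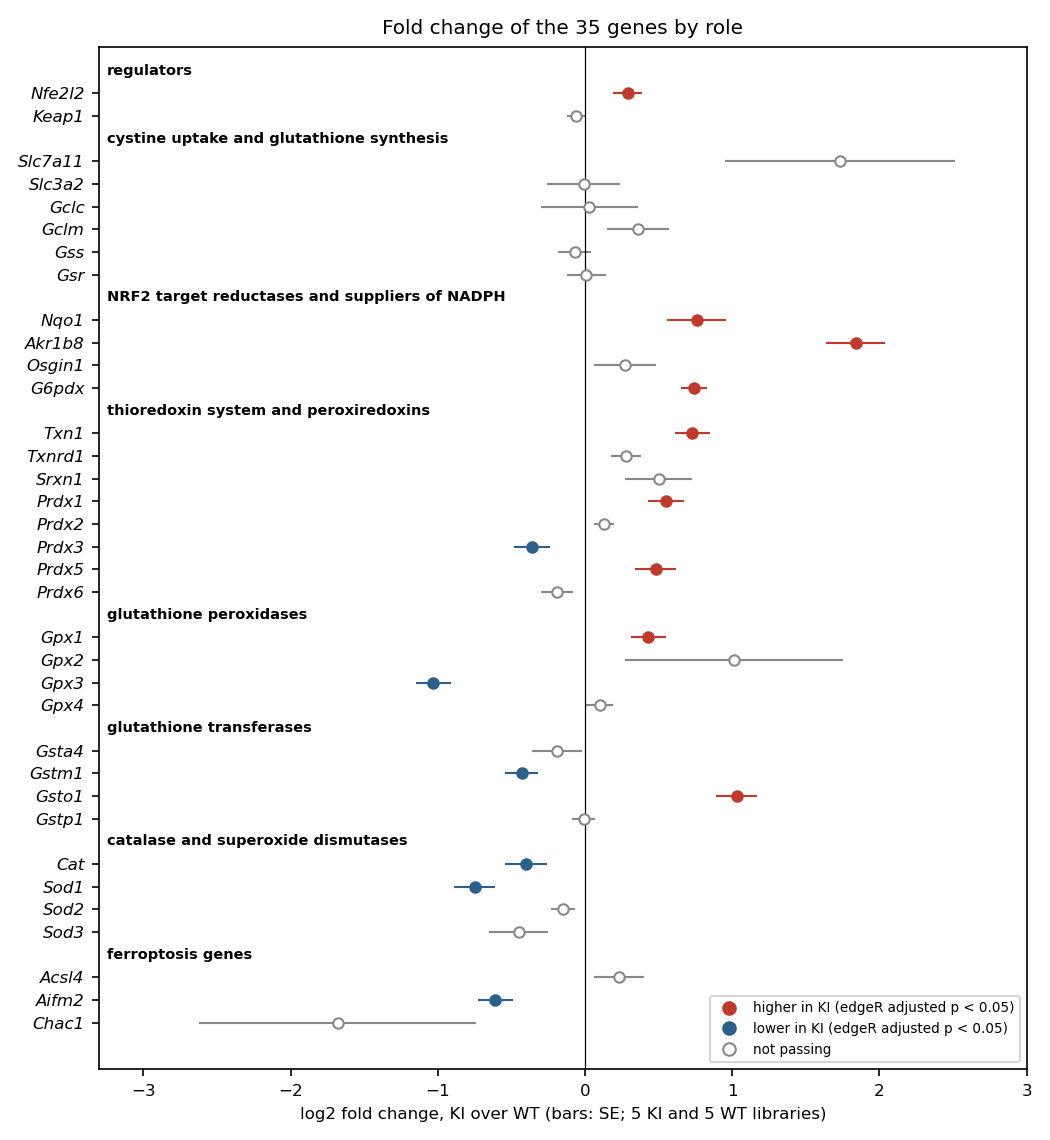
Log2 fold change of KI over WT for the 35 genes, grouped by role, with bars of 1 SE (5 KI and 5 WT libraries). Filled points passed edgeR's test, 9 higher and 6 lower in KI, and no gene of cystine uptake and glutathione synthesis is among them, although Slc7a11 and Gclm passed with the title prefix as a term.

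Of the 2 regulators Nfe2l2 was called higher. Nfe2l2 (ENSMUSG00000015839, chromosome 2, 75675513 to 75704641, minus strand of GRCm38) had 94.1, 102, 87.4, 90.4 and 71.6 CPM in KI libraries, against 76.8, 61.4, 78.4, 75.3 and 71.2 CPM in WT libraries. KI 5 lay inside the WT range and the other 4 KI libraries lay above it. KI over WT came to a log2 fold change of 0.29 ± 0.10 (SE; adjusted p = 0.0450 by edgeR). This call was marginal: it was lost when any 1 library other than KI 5 was left out, with adjusted p from 0.0576 to 0.106, and the log2 fold change then stayed between 0.24 and 0.32. Keap1, which encodes the inhibitor of NRF2, averaged 76.2 ± 4.55 CPM in KI and 79.3 ± 3.74 CPM in WT (SD, n = 5 each), with a log2 fold change of -0.06 ± 0.06 (adjusted p = 0.520 by edgeR). An antisense gene, Gm16754, shares 510 exonic bases with Keap1, and whether counting used strand was not stated.

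The sequence NRF2 is known to bind, the antioxidant response element, has the core TGACNNNGC, and it was searched on both strands of RefSeq promoter windows (GRCm38.p6, 250 bases before to 50 after a start site), as some known NRF2 targets were called higher. Windows were at hand for 30 of the 35 genes and the core stood in those of 7, or 23.3%, beside 14.0% of 27025 genes with a window. Counted by windows the share was 19.4% of 36 beside 12.4% of 32851. The 7 matches follow on the strand of the gene, with the core in capitals and 10 bases on each side. GCNNNGTCA is the core read on the other strand.
Nfe2l2: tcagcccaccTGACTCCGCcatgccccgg
Prdx1: cagggaaagcGCTGAGTCAtcccccgtag
G6pdx: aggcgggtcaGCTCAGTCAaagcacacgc
Gclm: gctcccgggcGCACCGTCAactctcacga
Txnrd1: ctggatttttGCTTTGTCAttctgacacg
Srxn1: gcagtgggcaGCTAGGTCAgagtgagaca
Sod1: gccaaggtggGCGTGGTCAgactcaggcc

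Nfe2l2 (chr2:75704885-75704913, minus strand), Prdx1 (chr4:116685456-116685484, plus strand) and G6pdx (chrX:74428919-74428947, minus strand) were higher in KI. Sod1 (chr16:90220696-90220724, plus strand) was lower. Gclm (chr3:122245413-122245441), Txnrd1 (chr10:82859104-82859132) and Srxn1 (chr2:152105542-152105570), all on the plus strand, did not pass. The core begins 240 bases before the start site in Nfe2l2, 133 in Prdx1, 57 in G6pdx, 134 in Gclm, 92 in Txnrd1 and 56 in Sod1, and at base 29 after it in Srxn1. The match of Prdx1 also holds TGANTCA, the AP-1 motif, which reads the same on both strands, and the other 6 do not. A match in letters does not show binding. All 9 genes higher in KI had a window and 3 held a match, while Akr1b8, Gsto1, Gpx1, Nqo1, Prdx5 and Txn1 held none. Of 6 lower genes with a window 1 held a match, and of 15 that did not pass 3 did. Gclc, Gsr, Gsta4, Prdx6 and Sod3 had no window. Sequence further than 250 bases before a start site was not searched.

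Genes that import cystine and make glutathione gave no call among 6 by edgeR, with 1 at an unadjusted p under 0.05, and DESeq2 called 1 of them and limma-voom 0. With the title prefix as a term edgeR called 2, Slc7a11 (2.28 ± 0.52, edgeR adjusted p = 0.00749) and Gclm (0.51 ± 0.13, edgeR adjusted p = 0.0115). Slc7a11, the cystine-glutamate exchanger whose activity limits glutathione synthesis, had 6.21, 7.14, 1.22, 2.88 and 1.98 CPM in KI libraries, against 0.838, 3.70, 0.856, 0.114 and 0.459 CPM in WT libraries. All KI libraries exceeded the WT libraries other than WT 2, which lay above 3 of the 5 KI libraries. Between genotypes the log2 fold change was 1.73 ± 0.78 (SE; adjusted p = 0.112 by edgeR), on 408 counts in KI and 124 in WT in all. Without WT 2 it was 2.78 ± 0.67 (edgeR adjusted p = 0.0146). Gclm, the modifier subunit of glutamate-cysteine ligase, which catalyses the first step of glutathione synthesis, had 51.2, 50.4, 35.5, 40.4 and 38.5 CPM in KI libraries, against 36.1, 51.9, 33.3, 24.5 and 22.7 CPM in WT libraries. WT 2 was again the highest WT library, and the log2 fold change was 0.36 ± 0.21 (adjusted p = 0.223 by edgeR) with it and 0.57 ± 0.17 (edgeR adjusted p = 0.0299) without it.

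The catalytic subunit Gclc averaged 59.9 ± 21.3 CPM in KI and 58.5 ± 26.4 CPM in WT (SD, n = 5 each), and its log2 fold change was 0.03 ± 0.33 (adjusted p = 0.947 by edgeR). Its spread between libraries followed the prefix: EAS37 libraries held 59.3 to 100.3 CPM and EAS42 libraries 32.8 to 51.7 CPM in either genotype. Slc3a2, the heavy chain that carries Slc7a11 to the membrane, averaged 128 ± 26.2 CPM in KI and 129 ± 52.5 CPM in WT, with WT 2 at 217 CPM. The remaining genes were steadier. Gss, glutathione synthetase, had a log2 fold change of -0.07 ± 0.11 (adjusted p = 0.669 by edgeR), and Gsr, which returns oxidised glutathione to its reduced form, one of 0.01 ± 0.13 (edgeR adjusted p = 0.959). Gss shares 395 exonic bases with Acss2 on the opposite strand, which had 11969 counts over the 10 libraries, against 3691 for Gss. Gclm shares 296 exonic bases with Gm17494 on the opposite strand (3187 counts, against 8398 for Gclm). Whether counting used strand was not stated.

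**Figure D2:**
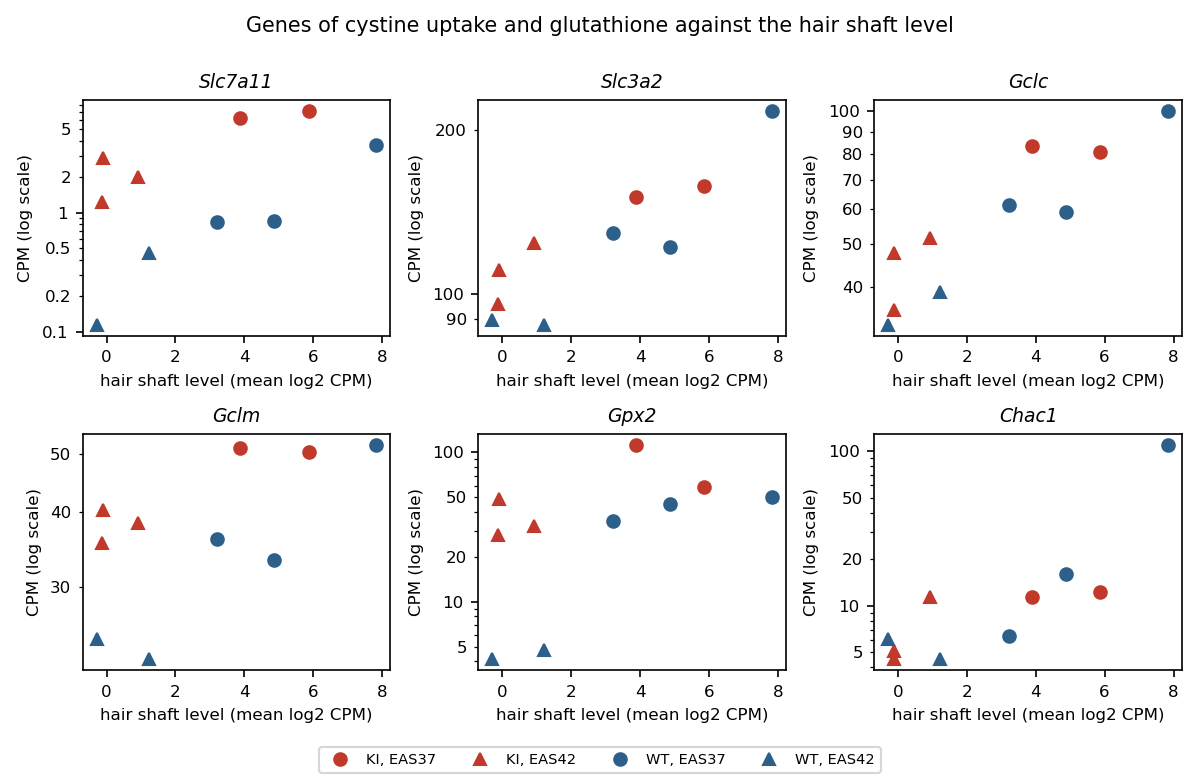
CPM of Slc7a11, Slc3a2, Gclc, Gclm, Gpx2 and Chac1 on a log axis against the hair shaft level (mean log2 CPM of 12 hair shaft markers) in each of the 10 libraries. EAS37 libraries (circles) stand to the right of EAS42 libraries (triangles), WT 2 has the highest hair shaft level (7.84), and the highest library of each of these genes is an EAS37 library.

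The summed deposited TPM (transcripts per M, a level per transcript length) of these 6 genes was 201 ± 34.9 in KI and 203 ± 69.2 in WT (SD, n = 5 each). Since the hair shaft level and Gclc each separated the prefixes, while Gss and Gsr did not, the genotype was also compared with the hair shaft level as a covariate, an alternative chosen after the data were seen. In that fit Slc7a11 (log2 fold change 2.68, edgeR adjusted p = 0.000567), Gclm (0.55, edgeR adjusted p = 0.00365) and Gclc (0.32, edgeR adjusted p = 0.0485) passed as higher in KI. Slc3a2 (0.21, edgeR adjusted p = 0.137), Gss and Gsr did not. With the skeletal muscle level none of these 6 passed, with log2 fold changes of 0.51 for Slc7a11, 0.12 for Gclm and -0.49 for Gclc, and with the adipocyte level none passed either, with 0.41 for Slc7a11, 0.22 for Gclm and -0.45 for Gclc. For Gclc the SE was 0.47 with the skeletal muscle level (edgeR adjusted p = 0.624) and 0.63 with the adipocyte level (edgeR adjusted p = 0.750). Its direction in those 2 fits is thus not resolved. Genes called with the hair shaft level made up 38.2% of those tested, and whether hair shaft cells supply these mRNAs was not tested.

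Of the 4 genes grouped here as NRF2 target reductases and suppliers of NADPH, 3 were higher in KI, each with no overlap between the genotypes. Akr1b8 (ENSMUSG00000029762, chromosome 6, 34354119 to 34368463, plus strand), an aldo-keto reductase that reduces reactive aldehydes, had 25.8, 27.6, 17.96, 19.5 and 14.8 CPM in KI libraries, against 4.99, 4.66, 8.02, 5.54 and 6.37 CPM in WT libraries. The lowest KI library stood well above the highest WT library. Its log2 fold change of 1.84 ± 0.20 (SE; adjusted p = 0.000393 by edgeR) was the largest of the 15 called genes, a 3.57-fold higher level. Akr1b8 has close relatives, although its expected counts were fractional in 0 of 10 libraries, and it was also summed with Akr1b7 and Akr1b10, and the sum had a log2 fold change of 0.89 (edgeR adjusted p = 0.000956). Within that family Akr1b10 alone had -0.18 ± 0.14 (edgeR adjusted p = 0.375), and Akr1b7 had 2 counts in KI and 7 in WT in all and was not tested.

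G6pdx, glucose-6-phosphate dehydrogenase, the entry enzyme of the pentose phosphate pathway and a main source of NADPH, had 81.5, 73.1, 59.5, 68.8 and 63.0 CPM in KI libraries, against 46.5, 42.0, 41.4, 38.7 and 38.4 CPM in WT libraries. The groups were separate, and the spread within each was small beside the gap. The fitted difference was a log2 fold change of 0.74 ± 0.09 (SE; adjusted p = 0.000653 by edgeR). It shares 418 exonic bases with Ikbkg on the opposite strand, whose own log2 fold change was -0.01 ± 0.06 (adjusted p = 0.914 by edgeR). Nqo1, a quinone reductase widely used as an NRF2 reporter, had 19.6, 14.2, 14.0, 17.3 and 12.5 CPM in KI libraries, against 10.3, 5.50, 10.3, 8.08 and 11.6 CPM in WT libraries. KI 5 and WT 5 came close to each other without crossing, and the log2 fold change was 0.76 ± 0.20 (adjusted p = 0.0165 by edgeR). Osgin1, an NRF2-inducible growth inhibitor, did not pass (0.27 ± 0.21, edgeR adjusted p = 0.339). The summed TPM of the 4 genes was 81.6 ± 8.402 in KI and 46.3 ± 4.24 in WT (SD, n = 5 each), with all KI libraries at or above 72.4 and all WT libraries at or below 50.7.

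The thioredoxin system reduces protein disulfides and supplies electrons to the peroxiredoxins, which remove hydrogen peroxide. Of its 8 genes 3 were higher in KI, 1 was lower and 4 did not pass. Txn1 (ENSMUSG00000028367, chromosome 4, 57943373 to 57956411, minus strand), cytosolic thioredoxin, had 244, 214, 153, 169 and 174 CPM in KI libraries, against 121, 104, 125, 114 and 112 CPM in WT libraries. No library crossed, and the log2 fold change was 0.73 ± 0.12 (SE; adjusted p = 0.00247 by edgeR). KI 1 and KI 2, both EAS37, stood above the other KI libraries. Prdx1, a cytosolic peroxiredoxin, had 600.3, 541, 394, 453 and 414 CPM in KI libraries, against 343, 286, 358, 328 and 330.0 CPM in WT libraries. The order of the KI libraries followed that of Txn1 in its top pair, and the log2 fold change was 0.55 ± 0.12 (adjusted p = 0.00893 by edgeR).

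Prdx5, a peroxiredoxin of mitochondria, peroxisomes and cytosol, had 313, 284, 218, 256 and 222 CPM in KI libraries, against 174, 138, 192, 213 and 207 CPM in WT libraries. The gap between KI 3 and WT 4 was small. On the log2 scale the difference, KI minus WT, was 0.48 ± 0.14 (SE; adjusted p = 0.0226 by edgeR), and the call was lost without KI 1, KI 2 or WT 1 in turn, with adjusted p up to 0.0607. Trmt112 shares 409 exonic bases with Prdx5 on the opposite strand and had a log2 fold change of 0.20 ± 0.08 (adjusted p = 0.0962 by edgeR). Prdx3, the peroxiredoxin of mitochondria, went the other way, with 39.1, 27.6, 40.2, 32.0 and 30.9 CPM in KI libraries, against 40.3, 43.4, 39.2, 45.0 and 50.2 CPM in WT libraries. KI 3 exceeded WT 3, so the groups overlapped. The log2 fold change was -0.36 ± 0.12 (adjusted p = 0.0354 by edgeR), and the call was lost without KI 2, KI 4, KI 5, WT 2, WT 4 or WT 5 in turn, with adjusted p up to 0.0911.

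Txnrd1, the reductase that recharges thioredoxin with NADPH, had 144, 143, 146, 146 and 139 CPM in KI libraries, against 104, 101, 111, 146 and 131 CPM in WT libraries. KI libraries hardly varied. The 3 WT libraries of EAS37 and WT 5 lay below them, while WT 4 lay among them. Txnrd1 fell short of the threshold (0.28 ± 0.10, edgeR adjusted p = 0.0570) and passed without WT 4 (0.36, edgeR adjusted p = 0.0147). Srxn1, sulfiredoxin, which repairs overoxidised peroxiredoxins, had 49.6, 40.6, 31.0, 37.8 and 28.2 CPM in KI libraries, against 19.6, 23.1, 24.5, 21.7 and 43.1 CPM in WT libraries. WT 5 alone overlapped KI, and without it Srxn1 passed (0.75, edgeR adjusted p = 0.0105), against 0.50 ± 0.23 (edgeR adjusted p = 0.113) with all libraries. Prdx2 (0.13 ± 0.07, edgeR adjusted p = 0.180) and Prdx6 (-0.19 ± 0.11, edgeR adjusted p = 0.209), both abundant, did not pass. Without WT 2 Prdx6 passed as lower (-0.28, edgeR adjusted p = 0.0364). Prdx2 shares 173 exonic bases with Junb and 177 with Rnaseh2a, both on the opposite strand. Summed over the 8 genes the level was 1767 ± 127 TPM in KI and 1435 ± 125 TPM in WT (SD, n = 5 each).

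Glutathione peroxidases reduce peroxides with glutathione and differ in where they act. Gpx1, the cytosolic and mitochondrial form, was higher in KI, with 294, 266, 208, 231 and 216 CPM in KI libraries, against 183, 137, 193, 190.3 and 198 CPM in WT libraries. The groups did not overlap, although KI 3 stood only a little above WT 5. This gave a log2 fold change of 0.43 ± 0.12 (SE; adjusted p = 0.0247 by edgeR), and the call was lost without KI 1 or KI 2 in turn, with adjusted p up to 0.0630. Gpx3 (ENSMUSG00000018339, chromosome 11, 54902453 to 54910377, plus strand), the secreted form found in plasma, was lower, with 63.1, 57.3, 73.2, 64.1 and 70.6 CPM in KI libraries, against 135, 103, 167, 126 and 141 CPM in WT libraries. Every KI library lay below every WT library, and KI libraries varied less. The log2 fold change of Gpx3 was -1.03 ± 0.12 (edgeR adjusted p = 0.000429), 0.489 times the WT level.

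Gpx2, a form of epithelia, had 112, 58.7, 28.1, 48.5 and 32.0 CPM in KI libraries, against 34.6, 50.5, 44.9, 4.13 and 4.77 CPM in WT libraries. The 2 WT libraries of EAS42 were far below all others. Over all libraries the log2 fold change was 1.01 ± 0.74 (SE; adjusted p = 0.323 by edgeR). Gpx4, the phospholipid hydroperoxidase that restrains ferroptosis, averaged 204 ± 23.8 CPM in KI and 189 ± 14.9 CPM in WT (SD, n = 5 each). KI over WT came to a log2 fold change of 0.10 ± 0.09 (adjusted p = 0.408 by edgeR), and per length it was among the 4 highest genes of the list in both genotypes.

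Glutathione transferases join glutathione to electrophiles or use it as a reductant. Gsto1 (ENSMUSG00000025068, chromosome 19, 47854970 to 47864790, plus strand), an omega class enzyme that reduces dehydroascorbate and mixed disulfides, had 132, 126, 82.1, 101 and 89.1 CPM in KI libraries, against 52.5, 59.6, 45.1, 48.7 and 53.8 CPM in WT libraries. The groups were far apart. Between genotypes the log2 fold change was 1.03 ± 0.14 (SE; adjusted p = 0.000816 by edgeR), a 2.04-fold higher level. Gstm1, a mu class enzyme, was lower, with 63.8, 48.3, 73.1, 58.9 and 56.7 CPM in KI libraries, against 93.3, 81.8, 74.2, 73.1 and 81.9 CPM in WT libraries. KI 3 and WT 4 were level and the other KI libraries lay below WT. The fitted difference was a log2 fold change of -0.43 ± 0.11 (adjusted p = 0.0157 by edgeR). Mu class genes are alike in sequence, and the sum of Gstm1 to Gstm7 had a log2 fold change of -0.18 (edgeR adjusted p = 0.0990), which did not pass.

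Gstp1, the pi class enzyme, had a log2 fold change of -0.01 ± 0.08 (SE; adjusted p = 0.911 by edgeR), and summed with Gstp2 and Gstp3 of the same family it had -0.02 (edgeR adjusted p = 0.902). Those relatives went opposite ways. Gstp3 averaged 7.88 ± 0.966 CPM in KI and 0.893 ± 0.449 CPM in WT (log2 fold change 3.17 ± 0.29, edgeR adjusted p = 0.000126), and Gstp2 averaged 4.61 ± 1.66 CPM in KI and 11.9 ± 2.93 CPM in WT (-1.37 ± 0.26, edgeR adjusted p = 0.00409). Expected counts were fractional in 10 of 10 libraries for Gstp1 and for Gstp2, whose split of reads is thus uncertain, and in 0 of 10 for Gstp3. Gsta4, which conjugates hydroxynonenal from oxidised lipids, was near 5 CPM and did not pass (-0.19 ± 0.17, edgeR adjusted p = 0.412).

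Catalase and the superoxide dismutases, which dispose of hydrogen peroxide and superoxide, gave 2 lower calls, no higher call and 2 genes that did not pass. Sod1 (ENSMUSG00000022982, chromosome 16, 90220754 to 90226329, plus strand), the cytosolic copper-zinc enzyme, had 61.9, 54.7, 71.2, 72.7 and 99.3 CPM in KI libraries, against 123, 111, 117, 122 and 134 CPM in WT libraries. KI 5 was the highest of the KI libraries and still below all WT libraries. On the log2 scale the difference, KI minus WT, was -0.75 ± 0.14 (SE; adjusted p = 0.00365 by edgeR). Expected counts of Sod1 were fractional in 10 of 10 libraries, as were those of Prdx1, so their split of reads is uncertain. For other called genes they were fractional in 9 libraries for Aifm2, 8 for Prdx5, 8 for Gstm1 and 1 for G6pdx. Cat, peroxisomal catalase, had 98.4, 108, 131, 133 and 166 CPM in KI libraries, against 202, 150.3, 153, 166.0 and 170.1 CPM in WT libraries. KI 5 lay within the WT range and the other KI libraries lay below it. The log2 fold change was -0.40 ± 0.14 (adjusted p = 0.0483 by edgeR), and the call was lost when any 1 library other than KI 5 or WT 2 was left out, with adjusted p up to 0.112.

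Sod2, the manganese enzyme of mitochondria, had a log2 fold change of -0.15 ± 0.08 (SE; adjusted p = 0.156 by edgeR). Sod3, the secreted enzyme, averaged 23.2 ± 3.21 CPM in KI and 31.7 ± 9.23 CPM in WT (SD, n = 5 each; -0.45 ± 0.20, edgeR adjusted p = 0.110), and passed as lower without WT 2 (-0.61 ± 0.13, edgeR adjusted p = 0.00827). The 3 superoxide dismutases together had 279 ± 57.6 TPM in KI and 435 ± 31.3 TPM in WT. All KI libraries, at 226 to 367 TPM, lay below all WT libraries, at 395 to 477 TPM, and most of that difference in summed TPM was Sod1, with 183 ± 51.9 TPM in KI and 328 ± 24.0 TPM in WT.

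Among the 3 genes named for ferroptosis, Aifm2 (ENSMUSG00000020085, chromosome 10, 61715263 to 61739260, plus strand), which reduces ubiquinone at membranes and restrains lipid peroxidation, was lower. It had 12.4, 10.9, 12.9, 12.3 and 15.4 CPM in KI libraries, against 21.1, 18.4, 23.2, 16.7 and 17.7 CPM in WT libraries. No library crossed, and the log2 fold change was -0.61 ± 0.12 (SE; adjusted p = 0.00546 by edgeR). It shares 233 exonic bases with H2afy2 on the opposite strand, whose log2 fold change was 0.11 ± 0.16 (adjusted p = 0.644 by edgeR). Acsl4, the acyl-CoA synthetase that supplies polyunsaturated lipids to membranes, averaged 72.7 ± 19.3 CPM in KI and 61.9 ± 7.30 CPM in WT (SD, n = 5 each; 0.23 ± 0.17, edgeR adjusted p = 0.319). Chac1, which breaks down glutathione and is induced by ATF4, had 11.3, 12.3, 5.06, 4.49 and 11.4 CPM in KI libraries, against 6.35, 109.5, 15.99, 6.10 and 4.54 CPM in WT libraries. WT 2 alone set the WT mean. This gave a log2 fold change of -1.68 ± 0.94 (adjusted p = 0.200 by edgeR) with WT 2 and 0.11 ± 0.44 (edgeR adjusted p = 0.877) without it.

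**Figure D3:**
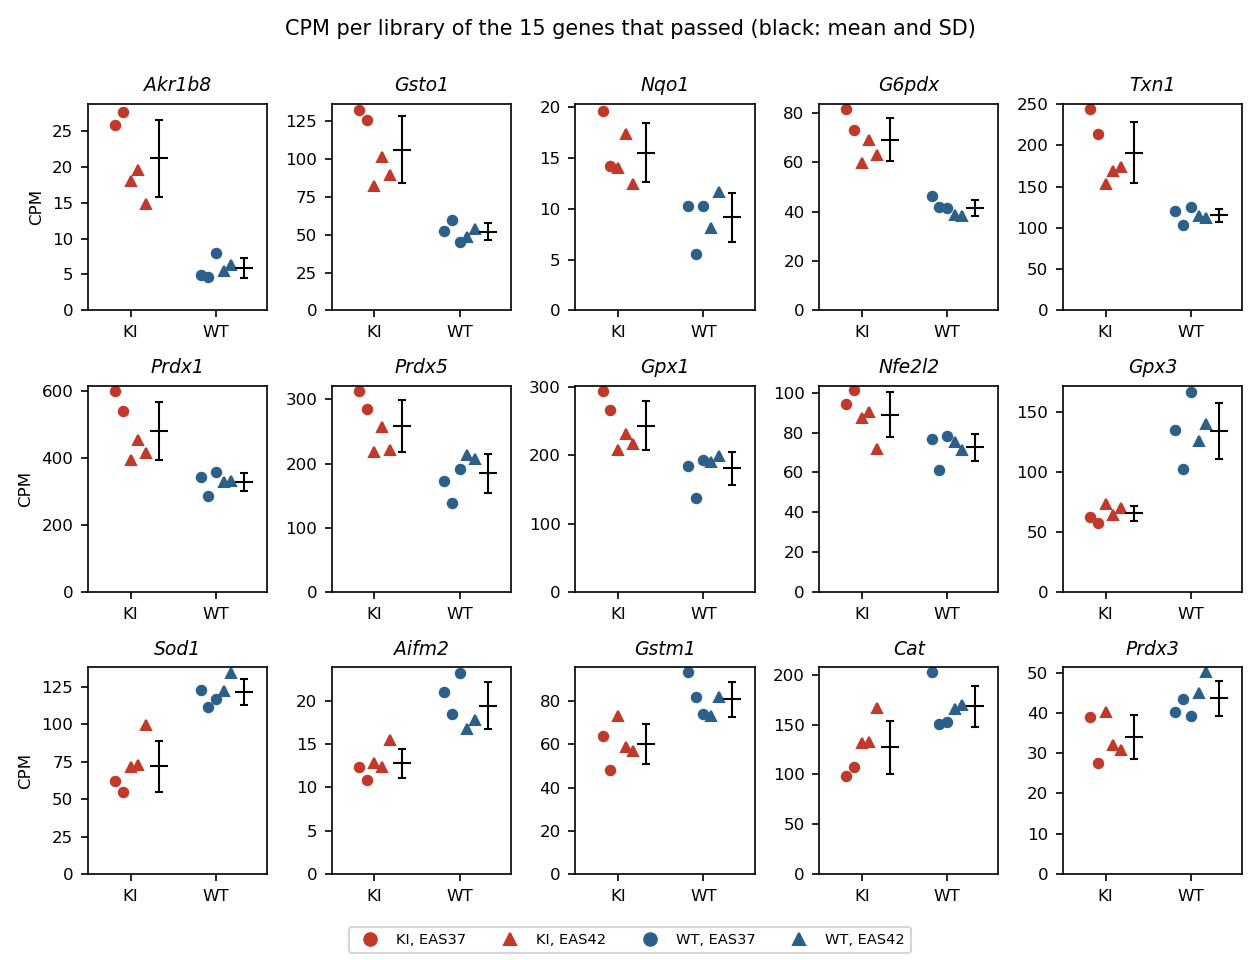
CPM in each library of the 15 genes that passed, 9 higher and 6 lower in KI, with the mean and SD of each genotype in black and the axis from 0. KI and WT points do not overlap in the panels of all higher genes other than Nfe2l2 and of Gpx3, Sod1 and Aifm2, while Gstm1, Cat and Prdx3 overlap.

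Levels per length differed widely across the list. By median TPM the highest in KI were Prdx1 (501 in KI, 361 in WT), Prdx5 (498 in KI, 355 in WT), Gpx1 (486 in KI, 397 in WT) and Gpx4 (472 in KI, 464 in WT). These 4 lay within each other's ranges in KI libraries, so their order there is not beyond the spread. Prdx2, at a median of 315 TPM in KI and 276 in WT, came next, below the lowest library of those 4 in KI. At the low end, Slc7a11 had a median of 0.45 TPM in KI and 0.14 in WT, well below Gsta4, the next gene up in KI, at 6.93 in KI and 8.02 in WT. Sod1 had a median of 184 TPM in KI and 322 in WT, where it was the fifth of the list. The summed level of all 35 genes was 4051 ± 175 TPM in KI and 3752 ± 182 TPM in WT (SD, n = 5 each), with overlap between libraries.

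**Figure D4:**
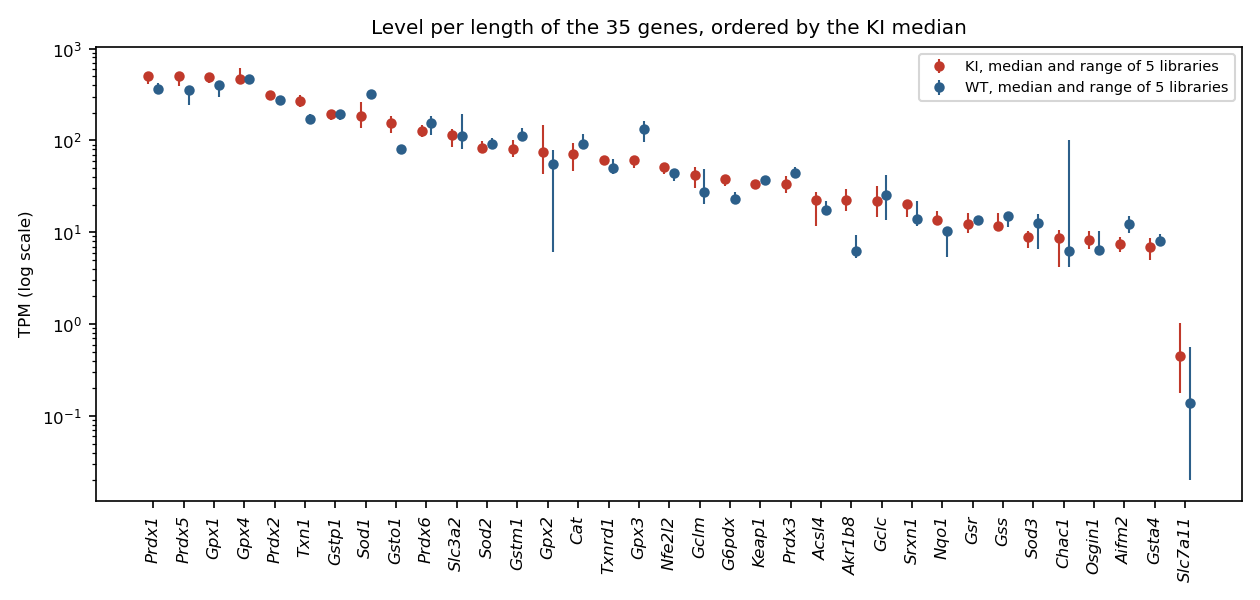
Deposited TPM of the 35 genes on a log axis, ordered by the KI median, with points at the median and bars over the range of 5 libraries per genotype. Levels run over about 3 orders of magnitude, with Prdx1, Prdx5, Gpx1 and Gpx4 at the top (472 to 501 in KI) and Slc7a11 lowest (0.45 in KI), and Slc7a11, Chac1 and Gpx2 have long bars in WT, that of Chac1 reaching 101 because of WT 2.

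The genotype effect was then compared between the title prefixes, since each holds both genotypes. With the prefix as a term, the 15 calls were kept and Slc7a11 (log2 fold change 2.28), Gpx2 (1.93 ± 0.44, edgeR adjusted p = 0.00963), Gclm (0.51) and Txnrd1 (0.25 ± 0.08, edgeR adjusted p = 0.0372) were called higher beside them. That made 13 higher and 6 lower calls, beside 38.3% of all genes called in that fit. Within EAS37 alone (2 KI, 3 WT) 10 genes were higher and 5 lower, where 28.4% of genes were called. Within EAS42 alone (3 KI, 2 WT) 8 were higher and 4 lower, where 13.9% of genes were called. Of the 15 calls over 10 libraries, 13 were kept in EAS37 alone and 6 in EAS42 alone, where 9 were lost. Nqo1 and Prdx3 passed in neither prefix on its own. All 15 genes called over 10 libraries kept their direction in each prefix.

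Akr1b8, Gsto1, G6pdx, Txn1, Gpx3 and Sod1 passed in each prefix on its own. Akr1b8 had a log2 fold change of 2.20 in EAS37 and 1.54 in EAS42, and Gsto1 had 1.32 in EAS37 and 0.81 in EAS42. Gpx2 and Slc7a11 had no overlap between KI and WT libraries within either prefix. In EAS42 Gpx2 had a log2 fold change of 3.01 (edgeR adjusted p = 0.00242) and Slc7a11 one of 2.86 (edgeR adjusted p = 0.0304), while in EAS37 they had 1.0 (edgeR adjusted p = 0.0719) and 1.94 (edgeR adjusted p = 0.0912). Srxn1 and Prdx5 ran the opposite way in size. Srxn1 had 1.03 (edgeR adjusted p = 0.00435) in EAS37 and -0.01 (edgeR adjusted p = 0.988) in EAS42, and Prdx5 had 0.85 (edgeR adjusted p = 0.00827) in EAS37 and 0.13 (edgeR adjusted p = 0.427) in EAS42. The difference of the genotype effects, tested as an interaction by edgeR, passed for 0 of the 35 genes beside 0.866% of all genes (150 genes). At an unadjusted p under 0.05 there were 11 of the 35 genes beside 3066 of 17321 genes, a larger share of the list than of all genes. The absence of calls thus does not show that the effects were equal in the prefixes. For Prdx5 the difference was -0.69 on the log2 scale (edgeR adjusted p = 0.104), EAS42 minus EAS37, and for Acsl4 it was 0.81 (edgeR adjusted p = 0.0748). Without the filter on low counts these 2 passed (edgeR adjusted p = 0.0426 for Prdx5 and 0.0267 for Acsl4), and Acsl4 passed without WT 2 (0.91, edgeR adjusted p = 0.0312).

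**Figure D5:**
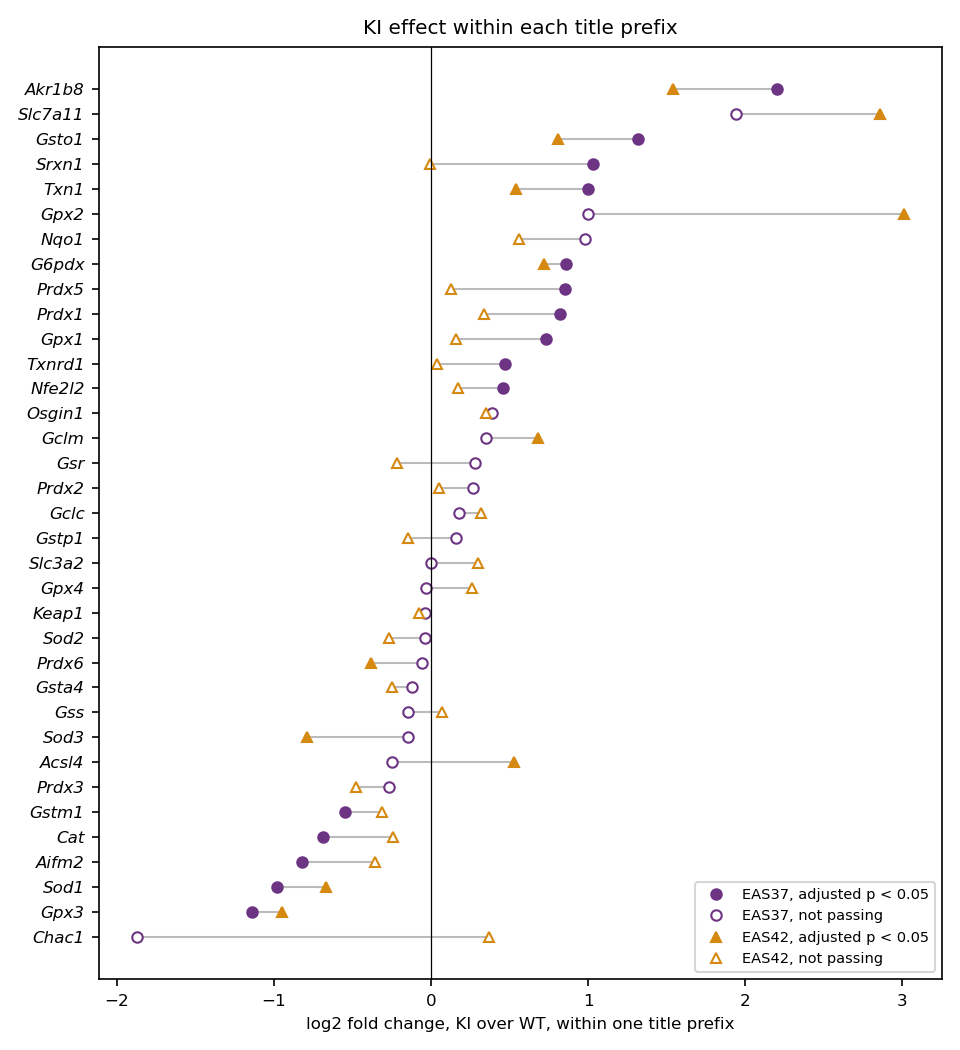
Log2 fold change of KI over WT within EAS37 (purple circles, 2 KI and 3 WT) and within EAS42 (orange triangles, 3 KI and 2 WT) for the 35 genes, filled where edgeR's adjusted p was under 0.05 in that prefix. Akr1b8, Gsto1, Txn1, G6pdx, Gpx3 and Sod1 are filled in both, and Gpx2, Srxn1 and Chac1 have effects far apart without passing the test of the difference.

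Fat and muscle markers separated the genotypes almost as the labels do, and the fits were repeated with each level as a covariate. With the skeletal muscle level Akr1b8 (log2 fold change 1.42, edgeR adjusted p = 0.0119), G6pdx (0.57, edgeR adjusted p = 0.0352) and Gsto1 (0.74, edgeR adjusted p = 0.0453) stayed higher and Gpx3 (-0.91, edgeR adjusted p = 0.0216) stayed lower, beside 2.36% of all genes called. With the adipocyte level none of the 35 passed by edgeR, beside 1.26% of all genes, and 10 had an unadjusted p under 0.05. Akr1b8 then had 1.70 ± 0.37 (SE; adjusted p = 0.0564 by edgeR), G6pdx 0.70 ± 0.17 (edgeR adjusted p = 0.0840), Nqo1 0.97 ± 0.35 (edgeR adjusted p = 0.215) and Gpx3 -0.75 ± 0.20 (edgeR adjusted p = 0.101). All 15 genes kept their direction in both fits, and the SE of the 15 ran over 0.17 to 0.37 with the adipocyte level, against 0.09 to 0.20 without it. The adipocyte levels of the genotypes met only between 6.08 and 6.10, so the genotype and that level cannot be told apart for these genes. Levels of Schwann cells, smooth muscle, endothelium, suprabasal and activated keratinocytes, T cells, neutrophils, and macrophages and dendritic cells did not overlap between the genotypes. None of those was used as a covariate. Their part in the calls kept with the skeletal muscle level was not tested.

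Other genes of the same pathways, 135 in 5 lists of which 127 were tested, gave 28 higher and 21 lower calls, or 38.6% beside 30.9% of all genes. Of 30 further NRF2 partners and targets 8 were higher and 7 lower. The 4 with the smallest p were all higher in KI with no overlap. Pgd, the other NADPH-producing dehydrogenase of the pentose phosphate pathway, averaged 117 ± 12.3 CPM in KI and 76.2 ± 4.55 CPM in WT (SD, n = 5 each; log2 fold change 0.62 ± 0.08, edgeR adjusted p = 0.000736). Abcc1, an exporter of glutathione conjugates, averaged 179 ± 13.9 CPM in KI and 128 ± 4.501 CPM in WT. The carbonyl reductase Cbr3 averaged 32.4 ± 5.80 CPM in KI and 15.3 ± 2.85 CPM in WT. Bach1, which encodes a repressor that competes with NRF2 for its sites, averaged 92.7 ± 12.0 CPM in KI and 62.5 ± 4.71 CPM in WT.

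Of 29 further glutathione enzymes and transferases 6 were higher and 6 lower, a share of 41.4%, above the 30.9% of all genes. The microsomal transferase Mgst2 averaged 32.9 ± 1.88 CPM in KI and 11.9 ± 0.972 CPM in WT (SD, n = 5 each; log2 fold change 1.46 ± 0.08, edgeR adjusted p = 6.19e-06), and glutaredoxin, Glrx, averaged 103 ± 18.9 CPM in KI and 32.0 ± 3.25 CPM in WT (1.69 ± 0.13, edgeR adjusted p = 5.59e-05). The theta class gene Gstt3 was lower (-0.89 ± 0.14, edgeR adjusted p = 0.00190). Of 19 further peroxidases, thioredoxins and repair reductases 2 were higher and 2 lower, a share of 21.1%, below the 30.9% of all genes. These 4 were Txnrd3 at 0.70 ± 0.15 (edgeR adjusted p = 0.00613), Selenok at 0.24 ± 0.05 (0.00941), Sesn3 at -0.36 ± 0.10 (0.0246) and Selenow at -0.47 ± 0.14 (0.0295) in log2 fold change with the adjusted p of edgeR in brackets.

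Of 31 further ferroptosis genes 5 were higher and 3 lower, a share of 25.8%, below the 30.9% of all genes. Pdss1, which builds the side chain of ubiquinone, averaged 48.9 ± 11.2 CPM in KI and 12.1 ± 2.502 CPM in WT (SD, n = 5 each; log2 fold change 2.02 ± 0.18, edgeR adjusted p = 0.000119). Gch1, the first enzyme of tetrahydrobiopterin synthesis, averaged 25.4 ± 8.59 CPM in KI and 7.12 ± 0.673 CPM in WT (1.84 ± 0.24, edgeR adjusted p = 0.000696). Gls2, a glutaminase (1.56 ± 0.19, edgeR adjusted p = 0.000558), and Sat1, a polyamine acetyltransferase (0.64 ± 0.09, edgeR adjusted p = 0.000968), were higher as well. Of 18 ATF4 targets and transsulfuration genes 7 were higher and 3 lower, a share of 55.6%, above the 30.9% of all genes. Asns, asparagine synthetase, averaged 38.5 ± 11.5 CPM in KI and 19.2 ± 1.22 CPM in WT (1.0 ± 0.18, edgeR adjusted p = 0.00383). The serine and glycine genes Psph (0.75 ± 0.11, edgeR adjusted p = 0.00152) and Shmt2 (0.51 ± 0.08, edgeR adjusted p = 0.00141) were also higher. Cbs, which starts the route by which homocysteine gives cysteine, averaged 16.2 ± 4.74 CPM in KI and 28.8 ± 2.82 CPM in WT (-0.83 ± 0.18, edgeR adjusted p = 0.00731).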

How the data were processed

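Libraries were made from trizol-extracted skin RNA with a stranded Illumina kit for mRNA, per the labels' protocols. Expected counts and TPM per gene were made by the authors and deposited in tables with RSEM columns, per the file headers. GRCm38 is the build in the submitters' processing notes, which also list STAR 2.5.2b, DESeq2 1.14.1, featureCounts, Picard 2.8.1 and FastQC without saying what each did. Which RSEM version, annotation release or strand setting was used is not given in the sources used here.

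Expected counts as deposited (10.4% to 12.2% of values per library fractional) were rounded. Genes were named from GENCODE M21 (55227 of 55487 identifiers, the rest holding 0.0113% of counts). edgeR's filterByExpr (minimum count 10, minimum total 15) kept 17321 genes, dropping 0.127% of counts. The genotypes were compared in edgeR 4.0.16 (R 4.3.3) with its quasi-likelihood test (robust fit, TMM, Benjamini-Hochberg adjustment over all genes, threshold 0.05), tested on simulated data first. CPM use TMM library sizes. List levels are mean log2 CPM with a prior count of 2. TPM values, as deposited by the authors, served to compare levels between genes.

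Genotype comes from the titles and replicate numbers only name libraries. No sources say how the animals relate. The p-values set the genotype difference against the spread between libraries and take the animals as independent, which could not be checked. No libraries of 1 genotype agreed within sampling noise (lowest chi-square per gene 27.0). All 35 genes are named, and from each of the 5 lists of other pathway genes the 4 with the smallest p. The 35 genes, those lists, the markers and the tests were chosen with earlier results of these data known. Alternatives were other normalizations and filters, DESeq2 1.42.0, limma-voom (limma 3.58.1), the prefix as a term or each prefix alone, marker levels as covariates, gene families summed and each library left out. The hair shaft level, and WT 2 with KI 2 left out together, were added after the data were seen.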

Additional observations from a re-analysis of the deposited data

Results flagged for a closer look

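In 4 of 70 gene and genotype groups of 5 libraries, 1 library stood apart from the others by Dixon's criterion (ratio over 0.71), and chance alone marks about 1 in 20 groups. Slc7a11 was 3.70 CPM in WT 2, the highest WT library, with the next at 0.856 CPM. Chac1 was 109.5 CPM in WT 2, with the next WT library at 15.99 CPM. Gpx1 was 137 CPM in WT 2, the lowest WT library, with the next at 183 CPM. Srxn1 was 43.1 CPM in WT 5, the highest WT library, with the next at 24.5 CPM. WT 2 also had the highest hair shaft level of all 10 libraries, 7.84, and the part of that level in these values was not tested.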

How the results depend on the processing

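Over 807 combinations of gene and alternative setting, 703 kept the side of the threshold, 74 lost a call, 30 gained one and no called value changed sign. Of the values not called, 37 in 12 genes changed sign. With the skeletal muscle level as a covariate 3 genes were higher and 1 lower, and with the adipocyte level 0 were higher and 0 lower. With the hair shaft level 15 were higher and 8 lower, beside 38.2% of all genes called. Leaving out 1 library at a time gave 6 to 10 higher and 4 to 7 lower genes. Among all genes tested, 3821 (without KI 1) to 5850 (without KI 5) were then called, against 5351 with all libraries. Other pathway genes called numbered 49, against 32 in EAS42 alone, 10 with the muscle level and 6 with the adipocyte level. Of all genes 30.9% were called in the main fit, against 13.9%, 2.36% and 1.26% in those 3 settings. The difference between prefixes was called for 2 genes with no filter and for 0 to 1 genes with 1 library left out. The cause of these moves was not tested. No paired analysis was possible because the labels give no replicate numbers that the genotypes share. DESeq2 also called Slc7a11 and limma-voom also called Txnrd1. Upper quartile scaling lost Cat, and no filter lost Cat and Nfe2l2. Without WT 2 and KI 2 together, 7 genes were higher and 5 lower, beside 3685 of 17332 genes called. Slc7a11 has few counts (124 over the WT libraries), which limits its precision.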
